A study of Mus musculus with 3 samples.

Results

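The proteasome subunit genes were followed across 3 CD8+ T cell populations. They were chosen by symbol: every gene whose symbol starts with Psma, Psmb, Psmc or Psmd and a number, among probe sets that the platform annotation pairs with a single symbol. This gave 33 genes of 10191 measured, of which 15 encode the core particle (Psma and Psmb) and 18 the regulatory particle or its assembly chaperones (Psmc and Psmd). All 33 had 1 probe set each. RefSeq lists 39 protein-coding mouse genes of these families, and the other 6, Psma4, Psma5, Psma8, Psmb11, Psmc5 and Psmd10, have no value of their own here. 2 further probe sets carry such a symbol beside another gene's and were not used. The populations were CXCR3+ innate CD8+, CXCR3- innate CD8+ and naive CD8+ T cells, sorted by flow cytometry after staining for CD44, CD62L and CD8. All came from spleen and lymph nodes of C57BL/6 mice in which green fluorescent protein reports CXCR3, a chemokine receptor. The naive population shares this reporter, and the protocol also names the animals CIBER mice. The mice had received no stated treatment and were kept free of pathogens. Their age is not given in the sources used here. RNA of about 3 to 5 mice was used, and each population was hybridised to 1 array, so no difference below has a replicate check, an error or a p-value. Higher and lower refer to log2 values on these 3 arrays only.

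The proteasome degrades proteins that carry ubiquitin chains. Its core is a barrel in which rings of alpha subunits gate the entrance and rings of beta subunits hold the cutting sites, and its regulatory particle, made of a base with ATPases and a lid, binds, unfolds and feeds in substrates. In lymphocytes, and after interferon gamma in other cells, the catalytic subunits Psmb8, Psmb9 and Psmb10 take the places of Psmb5, Psmb6 and Psmb7 in new particles, which form the immunoproteasome and change the peptides offered on MHC class I. Activated T cells make much new protein and rely on this system for turnover, and proteasome inhibitors are known to impair their proliferation.

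Promoter letters were examined because subunit genes often move together. RefSeq windows from 250 bases before to 50 after a start site were found for 27 of the 33 genes, in 29 windows on GRCm38.p6. None was held for Psmb1, Psmb2, Psmb7, Psmc3, Psmd3 and Psmd7. The motifs searched on either strand were the antioxidant response element core TGACNNNGC, CCAAT, the ETS motif CCGGAAG and the interferon regulatory factor motif GAAANNGAA. No matches of different motifs overlapped in these windows. Shown are the windows of the core genes Psmb10, Psmb5 and Psma1, whose values differed by at least 1.5-fold between CXCR3- innate and naive cells, and those of the regulatory genes Psmd2 and Psmd13, which were equal on all arrays. Capitals mark a match to one of the motifs.
Psmb10, chr8:105938343-105938642, minus strand: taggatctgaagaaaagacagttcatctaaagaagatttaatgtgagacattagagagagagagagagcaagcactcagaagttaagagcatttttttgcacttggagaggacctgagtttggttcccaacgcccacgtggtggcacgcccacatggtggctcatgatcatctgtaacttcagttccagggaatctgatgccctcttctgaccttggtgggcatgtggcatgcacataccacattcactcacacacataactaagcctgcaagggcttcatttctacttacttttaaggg
Psmb5, chr14:54617946-54618245, minus strand: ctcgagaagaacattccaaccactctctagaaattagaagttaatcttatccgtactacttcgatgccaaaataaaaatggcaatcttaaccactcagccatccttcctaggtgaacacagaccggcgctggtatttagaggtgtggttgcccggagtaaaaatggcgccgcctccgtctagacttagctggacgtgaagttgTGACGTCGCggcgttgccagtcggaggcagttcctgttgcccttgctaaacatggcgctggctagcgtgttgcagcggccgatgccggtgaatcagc
Psma1, chr7:114276067-114276366, minus strand: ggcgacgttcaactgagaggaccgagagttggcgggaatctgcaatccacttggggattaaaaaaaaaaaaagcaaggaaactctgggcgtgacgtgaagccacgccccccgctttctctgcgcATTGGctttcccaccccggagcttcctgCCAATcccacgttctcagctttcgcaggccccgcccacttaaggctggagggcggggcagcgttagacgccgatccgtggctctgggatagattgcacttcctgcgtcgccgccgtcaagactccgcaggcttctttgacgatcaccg
Psmd2, chr16:20651402-20651701, plus strand: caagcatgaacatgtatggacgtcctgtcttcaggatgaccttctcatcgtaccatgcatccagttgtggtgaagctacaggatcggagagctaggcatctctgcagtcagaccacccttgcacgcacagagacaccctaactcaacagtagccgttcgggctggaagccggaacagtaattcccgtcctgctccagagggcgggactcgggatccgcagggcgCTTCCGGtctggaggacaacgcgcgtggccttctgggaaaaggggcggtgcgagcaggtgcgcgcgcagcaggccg
Psmd13, chr7:140882144-140882443, plus strand: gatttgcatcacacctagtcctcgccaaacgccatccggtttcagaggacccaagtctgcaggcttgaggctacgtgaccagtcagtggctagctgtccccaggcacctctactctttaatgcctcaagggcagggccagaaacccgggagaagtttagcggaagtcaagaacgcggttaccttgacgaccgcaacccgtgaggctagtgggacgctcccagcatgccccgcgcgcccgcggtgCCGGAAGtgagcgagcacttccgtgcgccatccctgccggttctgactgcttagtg

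The Psmb5 window holds one antioxidant response element core, the Psma1 window one CCAAT on each strand, and the Psmd2 and Psmd13 windows one ETS motif each, whereas the Psmb10 window holds none of the 4. ETS motif letters were present in 10 of 16 regulatory windows (62.5%) and in 1 of 13 core windows (7.69%), the single core match being Psma6. The same letters occur in 14.7% of the 9840 windows of genes measured here and in 8.86% of all 32851 windows. CCAAT stood in 7 of 13 core and 4 of 16 regulatory windows, against 37.4% of all windows. The antioxidant response element core, a sequence bound by Nfe2l1 and Nfe2l2, stood in the windows of Psmb5, Psmb6, Psmc6, Psmd9 and Psmd12, which is 17.2% of member windows and 12.4% of all windows. The interferon regulatory factor motif was found in 5 member windows (17.2%), against 8.56% of all, and none of them belongs to an immunoproteasome gene. These are matches of letters, not binding sites.

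Values were log2 expression values made by RMA, a procedure that summarises the probes of each probe set. Exactly equal values are frequent in this table: 34.6% of all genes had the same value on all 3 arrays, and so did 7 of the 33 proteasome genes. A difference of 0 therefore does not show equal expression. The 3 arrays had medians of 7.63 to 7.65 over all genes. Of 8 CD8 T cell genes listed 7 were measured, and Cd8a and Cd8b1, which encode the sorted coreceptor, read 9.77 or more on every array. All 3 populations share that coreceptor. Cxcr3 itself read 7.97 on the CXCR3+ innate array, 7.82 on the CXCR3- innate array and 7.57 on the naive array. Its values on the innate arrays thus differed by only 0.15. Of 32 marker genes of B, CD4 and regulatory T, natural killer, myeloid, erythroid and gamma-delta T cells, 8 were measured. They ranged from 7.07 to 8.04 on the CXCR3+ innate array, from 6.98 to 8.31 on the CXCR3- innate array and from 6.93 to 8.09 on the naive array, with no B cell or erythroid gene measured. Of those 8, 6 were higher and none lower in CXCR3- innate than in naive cells, by at most 0.24. Of all genes 21.6% were higher and 36.3% lower there. Their part in the differences below was not tested. In such sorted bulk samples fewer cells with a transcript and less of it per cell cannot be told apart.

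In CXCR3- innate cells no proteasome gene was above its naive value as deposited, although 5 were after quantile normalization, 5 after cyclic loess and 8 after median centring. Of the 33 genes, 26 were below the naive value and 7 equal, whereas 36.3% of all genes were below and 21.6% above. The median difference was -0.11 over all 33, -0.30 over the core and -0.07 over the regulatory genes, beside 0.00 over all genes. Among the core genes 14 of 15 were below, Psma3 being the exception at 0, and among the regulatory genes 12 of 18. These counts include Psma7, Psmb9 and Psmd7, whose CXCR3- innate values are under 7.00. Every deposited probe set reaches 7.00 on some array, so these genes are present only through another array. A value below naive was favoured in advance for Psma7 and Psmb9 and fixed for Psmd7. By a size rule of at least 2-fold, with the higher value at or above its array's median, 1 of 33 genes was lower, and 0.245% of all genes passed in either direction. At 1.5-fold 4 genes were lower, all of the core, against 1.6% of all genes. None was 1.5-fold higher, against 0.0981% of all genes. Over the 33 genes, 20 had a value that passed the filter on dim genes in this comparison, and the median over those 20 was -0.23, in a set that the filter itself chose by level.

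**Figure D1:**
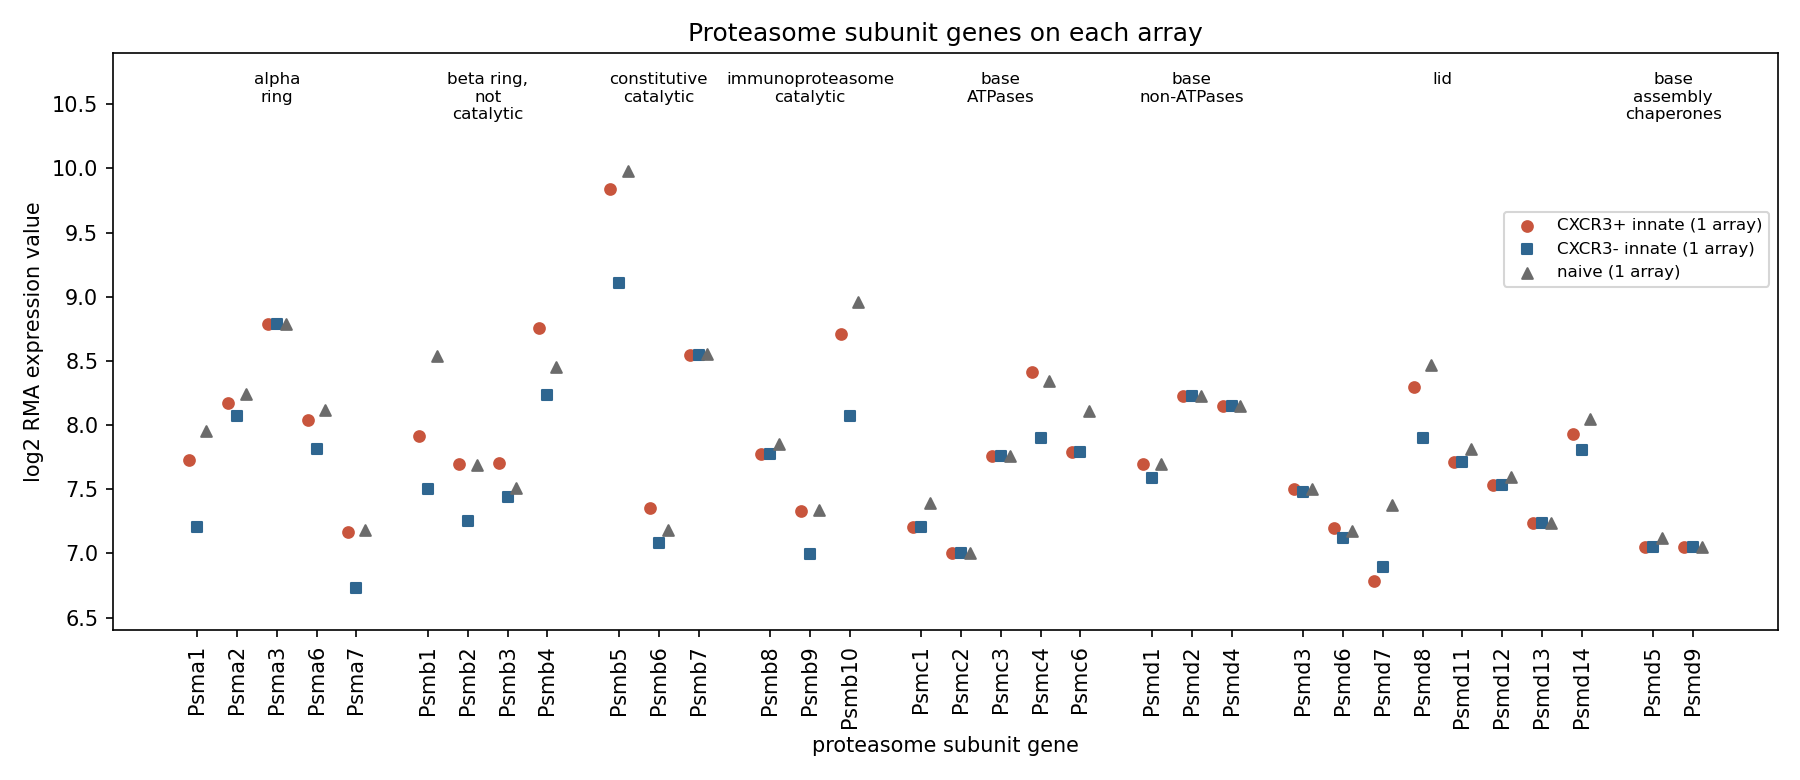
Log2 RMA expression value (vertical axis) of each of the 33 proteasome subunit genes (horizontal axis), grouped by role, on 1 array each of CXCR3+ innate (circles), CXCR3- innate (squares) and naive (triangles) CD8+ T cells. In these deposited values the squares lie below or level with the triangles for every gene (5 lie above after quantile normalization or cyclic loess and 8 after median centring), with the widest gap for Psmb1, 7.50 on the CXCR3- innate array against 8.53 on the naive array. Psma7, Psmb9 and Psmd7 have squares under 7.00 and are present only through another array.

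The alpha ring, which forms the gates of the core, had 5 measured genes. Psma1 had log2 values of 7.72 on the CXCR3+ innate array, 7.20 on the CXCR3- innate array and 7.96 on the naive array. The CXCR3- innate value was 1.68-fold below the naive one. Psma7 read 7.17, 6.73 and 7.18 in the same order, so that CXCR3- innate cells stood 0.45 below naive cells and the CXCR3+ innate value was 0.01 below. Psma6, at 8.04, 7.82 and 8.11, and Psma2, at 8.17, 8.07 and 8.24, had smaller differences in the same order of arrays. In all 4 of these genes the CXCR3- innate array was lowest and the naive array highest. Psma7 has a CXCR3- innate value under 7.00 and is present only through another array, so a low value there was favoured in advance. Psma3 read 8.79 on every array.

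The beta subunits without a cutting site, Psmb1 to Psmb4, line the same chamber. Psmb1 had log2 values of 7.92 on the CXCR3+ innate array, 7.50 on the CXCR3- innate array and 8.53 on the naive array. It had the widest difference among the 33 genes in either comparison with naive cells, at 1.54-fold lower in CXCR3+ innate and 2.04-fold lower in CXCR3- innate cells. Psmb1 was also the one gene past the 2-fold rule in CXCR3- innate minus naive, and it missed that rule after quantile normalization, at -0.96, and with a linear offset of 16, at -0.97. Psmb2 read 7.70, 7.25 and 7.69, Psmb3 read 7.70, 7.44 and 7.51, and Psmb4 read 8.76, 8.23 and 8.46 in the order CXCR3+ innate, CXCR3- innate and naive. In these last 3 genes the CXCR3+ innate value was the highest of the arrays, for Psmb2 by only 0.01.

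The catalytic subunits divided within each class. Psmb5, the chymotrypsin-like subunit, had log2 values of 9.84 on the CXCR3+ innate array, 9.11 on the CXCR3- innate array and 9.98 on the naive array. That is 1.83-fold lower in CXCR3- innate than in naive cells, whereas CXCR3+ innate cells stood at -0.14. Psmb6, the caspase-like subunit, read 7.35, 7.08 and 7.18, and Psmb7, the trypsin-like subunit, read 8.55 on all 3 arrays, with a difference of -0.01 in either comparison with naive cells. For 3 of the 33 proteasome genes RefSeq lists a copy named as a pseudogene, and whether any probes also detect such copies was not tested.

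Among the immunoproteasome subunits, Psmb10, which replaces Psmb7, had log2 values of 8.71 on the CXCR3+ innate array, 8.07 on the CXCR3- innate array and 8.96 on the naive array. It was 1.85-fold lower in CXCR3- innate than in naive cells. Psmb9, which replaces Psmb6, read 7.33, 7.00 and 7.34, so that the innate populations differed by 0.33 while CXCR3+ innate and naive cells were 0.01 apart. Its CXCR3- innate value, 6.998, is under the level that every deposited probe set reaches on some array. Psmb9 is thus present only through another array, and its low CXCR3- innate value was favoured in advance. Psmb8, which replaces Psmb5, read 7.77, 7.77 and 7.85. The mean difference of the 3 immunoproteasome genes was -0.11 in CXCR3+ innate minus naive, -0.44 in CXCR3- innate minus naive and 0.32 in CXCR3+ innate minus CXCR3- innate. For the 3 constitutive genes it was 0.01, -0.33 and 0.34. The classes thus differed from each other by -0.12, -0.11 and -0.01 in the same order of comparisons, less than the members of either class differed among themselves.

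**Figure D2:**
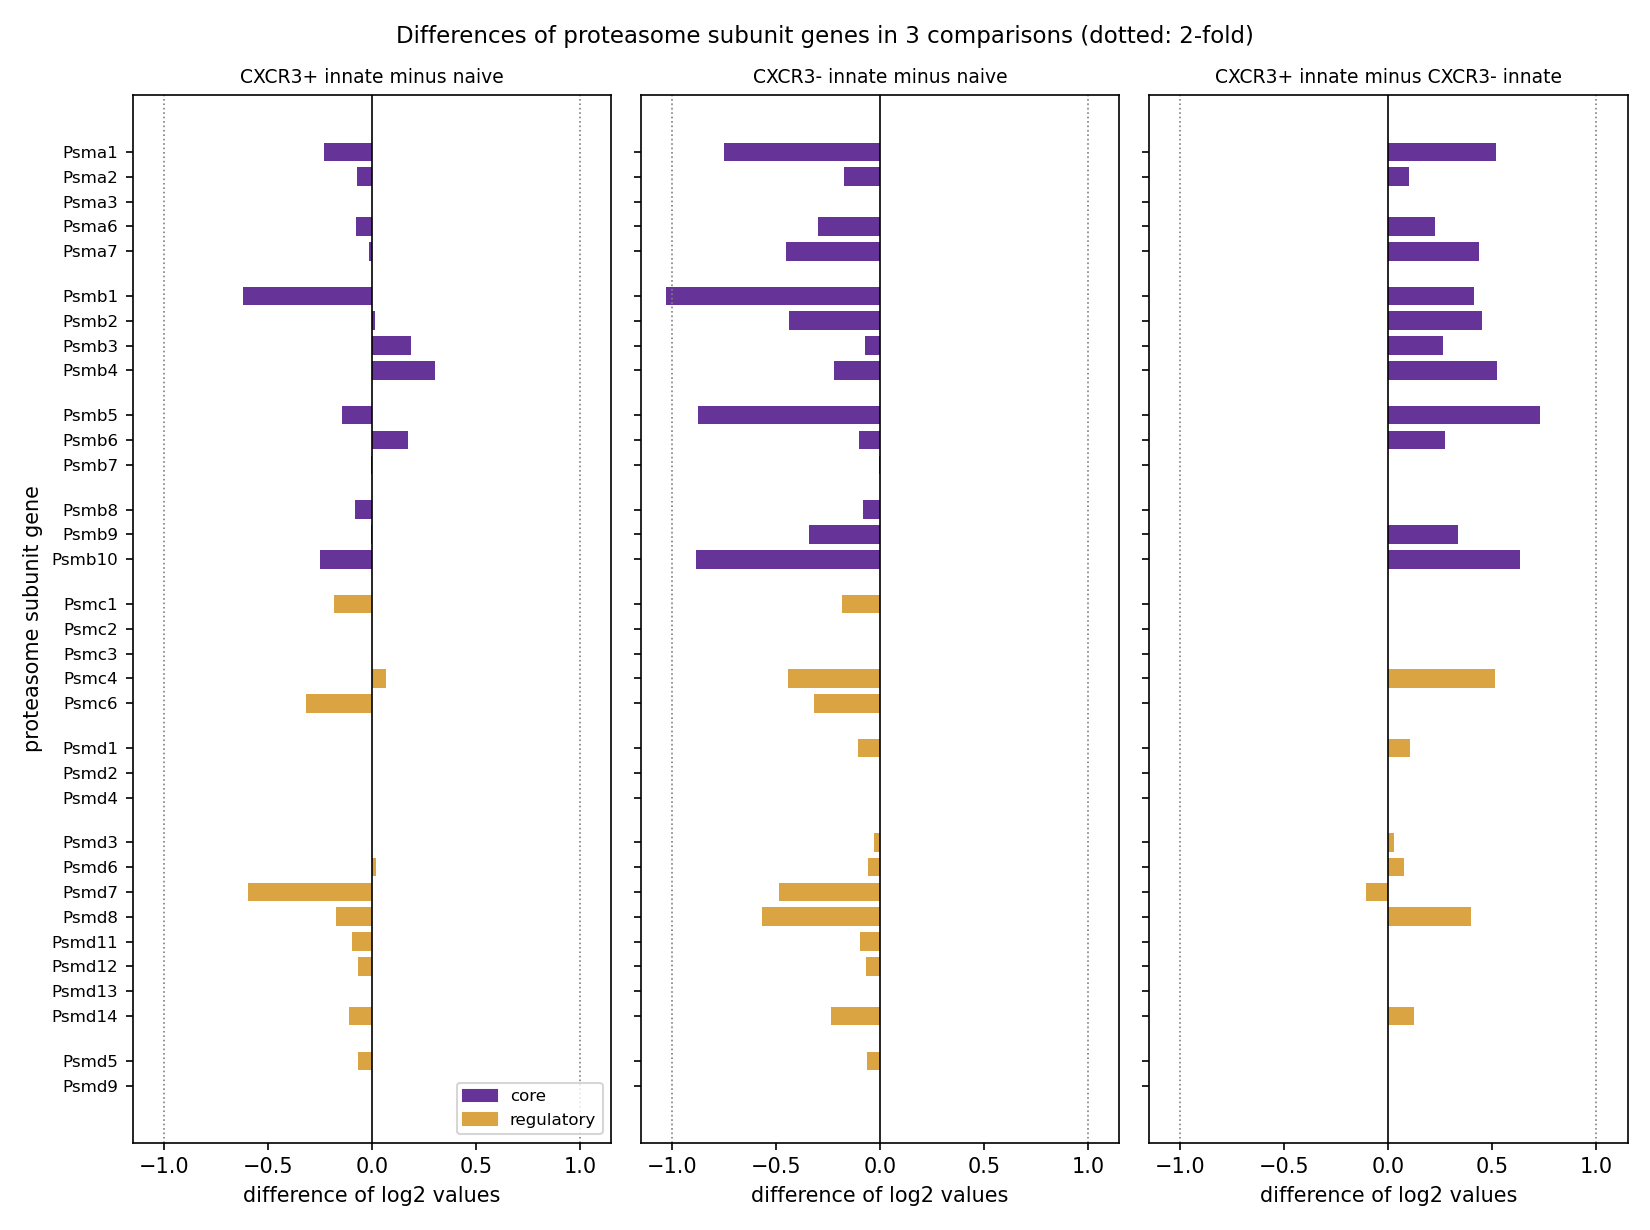
Difference of log2 values (horizontal axis) of the 33 genes in CXCR3+ innate minus naive (left), CXCR3- innate minus naive (middle) and CXCR3+ innate minus CXCR3- innate cells (right), with core genes in purple, regulatory genes in yellow and dotted lines at 2-fold. In these deposited values every bar of the middle panel points to the left or has no length (5 point right after quantile normalization or cyclic loess and 8 after median centring), and 18 bars of the right panel point to the right. Psma7, Psmb9 and Psmd7 have CXCR3- innate values under 7.00 and are present only through another array.

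In the regulatory particle, the ATPases of the base, which unfold substrates, were represented by 5 genes. Psmc4 had log2 values of 8.41 on the CXCR3+ innate array, 7.90 on the CXCR3- innate array and 8.34 on the naive array, the one ATPase with distinct values on all arrays. Psmc6 read 7.79 on both innate arrays and 8.11 on the naive array, and Psmc1 read 7.20 on both innate arrays and 7.39 on the naive array. Psmc2 and Psmc3 were equal on all 3, at 7.00 and 7.76. Of the other base subunits, the ubiquitin receptor Psmd4 (8.15) and the scaffold Psmd2 (8.23) were equal on all arrays, and the scaffold Psmd1 had log2 values of 7.69 on the CXCR3+ innate array, 7.59 on the CXCR3- innate array and 7.69 on the naive array.

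The lid, which removes ubiquitin before degradation, held the widest regulatory differences in either comparison with naive cells. Psmd8 had log2 values of 8.30 on the CXCR3+ innate array, 7.90 on the CXCR3- innate array and 8.47 on the naive array, a difference of -0.57 in CXCR3- innate minus naive, just short of 1.5-fold. Psmd7, the partner of the deubiquitinase, read 6.78, 6.89 and 7.38. It was the single gene of the 33 with its lowest value in CXCR3+ innate cells, at -0.60 against naive cells, and all its values were under the array medians. No deposited probe set has a highest value under 7.00, so Psmd7 is present only through its naive value. That both its innate values lie below naive was therefore fixed in advance. Psmd14, the deubiquitinase itself, read 7.93, 7.81 and 8.05. The lid subunits Psmd11 and Psmd12 were equal on both innate arrays and 0.10 and 0.07 below naive. Psmd3 was 0.03 below naive in CXCR3- innate cells and equal to it in CXCR3+ innate cells, Psmd6 stood at 7.20, 7.12 and 7.18, and Psmd13 was equal on all arrays at 7.24. Of the chaperones that assemble the base, Psmd5 was 0.07 below naive on both innate arrays and Psmd9 was equal on all 3.

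In CXCR3+ innate cells the subunit genes stood close to their naive values. Of the 33 genes 18 were below, 9 equal and 6 above, beside 34.2% of all genes below and 20.7% above. Rescaling gave other counts, with 20 below and 13 above after quantile normalization or cyclic loess, and 16 below and 17 above after median centring. The median difference was -0.01 over all 33 (0.0052 after median centring), -0.01 over the core and 0.00 over the regulatory genes. Exactly equal were 8 of 18 regulatory and 1 of 15 core genes. No gene passed the 2-fold rule, which 0.236% of all genes did. At 1.5-fold, Psmb1 was lower, against 0.697% of all genes, and none was higher, against 0.5% of all genes. Psmd7 was 1.51-fold lower but did not pass the filter on dim genes and is not counted. Psmb4 had the widest difference above 0, at 0.30, and the other genes above 0 were Psmb3 at 0.19, Psmb6 at 0.17, Psmc4 at 0.07, Psmd6 at 0.02 and Psmb2 at 0.01.

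Between the innate populations, 18 of 33 genes were higher in CXCR3+ innate cells, 14 were equal and Psmd7 alone was lower as deposited, at -0.11, whereas 12, 10 and 15 genes were lower after quantile normalization, cyclic loess and median centring. Of all genes 28.7% were above and 22.3% below. The median difference was 0.33 over the core and 0.00 over the regulatory genes, and 12 of 15 core but 6 of 18 regulatory genes were above 0. Exactly equal were 11 of 18 regulatory and 3 of 15 core genes, so the regulatory median of 0.00 does not show equal expression. The core genes above 0 include Psma7 and Psmb9, which have CXCR3- innate values under 7.00 and are present only through another array. No gene passed the 2-fold rule, which 0.157% of all genes did. At 1.5-fold Psmb5, at 0.73, and Psmb10, at 0.63, were higher, against 1% of all genes, and none was lower, against 0.0785%. Psmb4, Psma1, Psmc4, Psmb2, Psma7 and Psmb1 followed at 0.52, 0.52, 0.51, 0.45, 0.44 and 0.41. The comparisons share arrays, so these values and those against naive cells are not independent of each other.

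The order of the arrays summarised the same values. Of the 33 genes, 17 had 3 distinct values, and in 16 of these the CXCR3- innate array was lowest, against 47.6% of the 3372 genes of the whole table with 3 distinct values. All 12 core genes with distinct values had their lowest value there. For Psma7 and Psmb9 among them that value was under 7.00, which every deposited probe set reaches on some array. They are thus present only through another array, and a lowest CXCR3- innate value was favoured in advance for them. CXCR3+ innate lay between CXCR3- innate, the lowest, and naive in 10 of the 17 genes, against 37.8% of those 3372 genes, and above naive in 6. In 7 more of the 33 genes the innate arrays were equal and below naive, while they were equal and apart from naive in either direction in 14.4% of all genes, and in Psmd1 and Psmd3 CXCR3+ innate equalled naive.

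Brightness moved with these differences. Bright genes in general read lower on the CXCR3- innate array: of the 1020 genes in the top 10% by mean level 74.9% were below naive, with a median of -0.20, while of the 5095 genes in the lower 50% it was 20.3%, with a median of 0.00. The median of the mean level was 7.98 for the core genes, 7.61 for the regulatory genes and 7.64 for all genes. Within the lower 50%, 6 of 6 core genes and 6 of 9 regulatory genes were below naive in CXCR3- innate cells, with medians of -0.39 and -0.06. Among these, the core genes Psma7 and Psmb9 and the regulatory gene Psmd7 had CXCR3- innate values under 7.00. No deposited probe set has a highest value under 7.00, so these genes are present only through another array. A CXCR3- innate value below naive was thus favoured in advance for them. From the 50th to the 75th percentile, 4 of 4 core and 4 of 6 regulatory genes were below, with medians of -0.23 and -0.10, against 38.6% of all genes there and a median of 0.00. From the 75th to the 90th percentile, 3 of 4 core and 2 of 3 regulatory genes were below, against 60.1% of all genes. The core genes thus stood further below naive than the regulatory genes in the lower 2 ranges, but not in the range up to the 90th percentile, where the medians were -0.12 and -0.44.

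**Figure D3:**
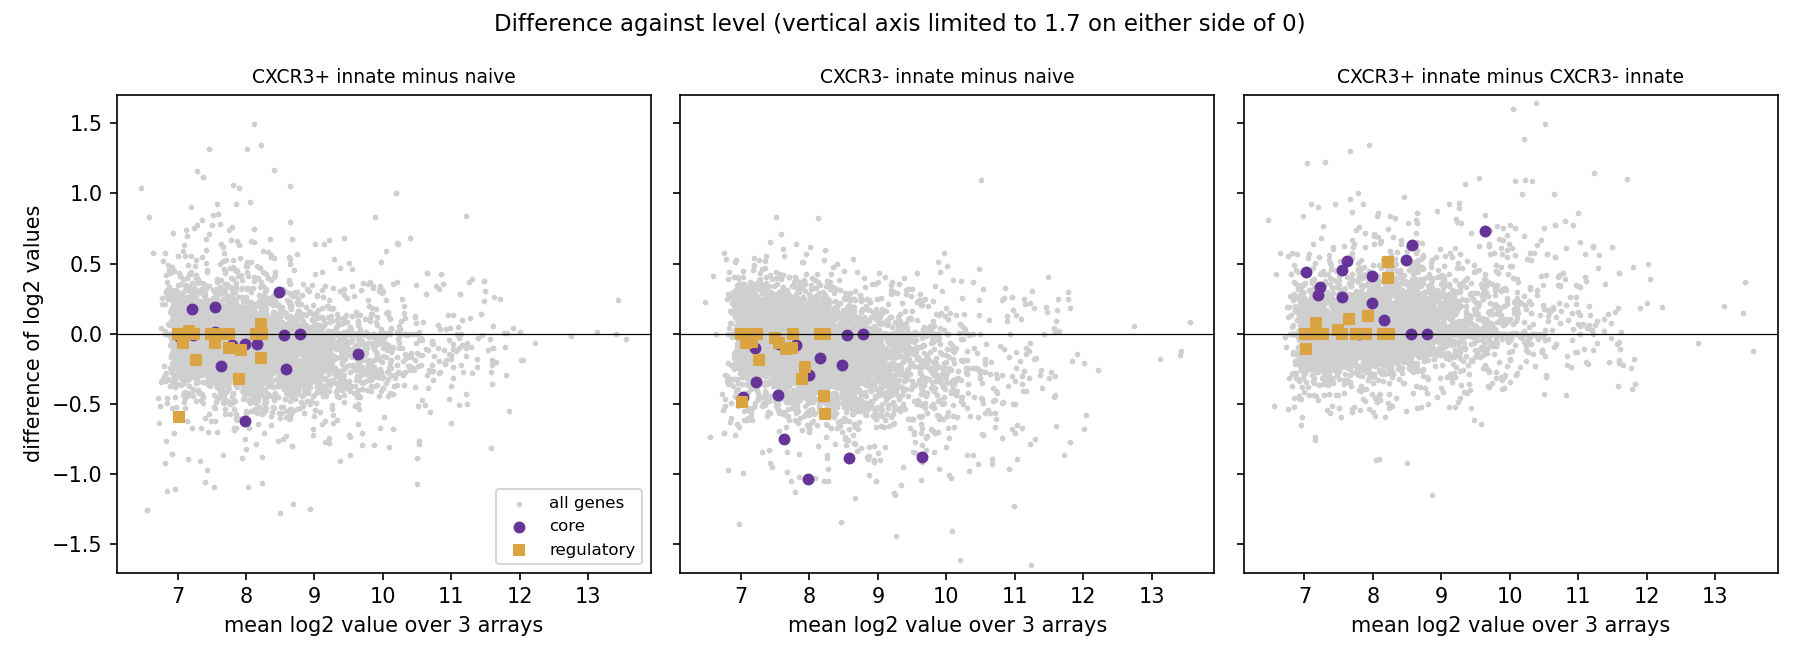
Difference of log2 values (vertical axis) against the mean log2 value over the 3 arrays (horizontal axis) for all 10191 genes (grey), core genes (purple circles) and regulatory genes (yellow squares) in CXCR3+ innate minus naive (left), CXCR3- innate minus naive (middle) and CXCR3+ innate minus CXCR3- innate cells (right). Genes that differ by more than 1.7 are not drawn, and in the middle panel the grey cloud bends below 0 at high levels, while core genes lie below 0 at low levels too. Of these, Psma7 and Psmb9 have CXCR3- innate values under 7.00 and are present only through their values on other arrays.

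Partners of the proteasome outside the 4 gene families were read from the same arrays. Of 5 measured activator and inhibitor genes, Psme1, an interferon-induced activator subunit, had log2 values of 8.96 on the CXCR3+ innate array, 8.65 on the CXCR3- innate array and 9.23 on the naive array, and Psme3, a nuclear activator, read 7.46 on both innate arrays and 7.76 on the naive array. Psme2, Psme4 and the inhibitor Psmf1 were equal on all. Of 6 measured assembly factors and associated proteins, the assembly chaperone Psmg3 was 0.27 above naive in CXCR3+ innate cells and the deubiquitinase Uchl5 was 0.29 below in CXCR3- innate cells, and the median was 0.00 in either comparison with naive cells. Of 8 measured ubiquitin delivery genes, 6 were below naive in CXCR3- innate cells, with the shuttle factor Ubqln1 at -0.48, Rad23b at -0.29 and a median of -0.07. Of all genes 36.3% were below there, and 60.1% of those from the 75th to the 90th percentile of level and 74.9% of those above it. Ubqln1 and Rad23b read 9.15 and 8.36 on the naive array. Of 6 measured regulators of proteasome genes, Nfe2l1, the transcription factor that raises subunit genes when the proteasome is inhibited, was equal on all arrays at 8.02. Stat3, another transcription factor, was at -0.15 in CXCR3+ innate and -0.18 in CXCR3- innate cells against naive. The activating enzyme of Nfe2l1, Ngly1, was at -0.17 in CXCR3+ innate and -0.46 in CXCR3- innate cells.

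Genes of MHC class I peptide processing and loading, which use proteasome products, and of their regulators were below naive in CXCR3- innate cells in 14 of 16 measured members, with a median of -0.21, and none was above as deposited. Of all genes 36.3% were below there. These are bright genes, with a list median of 8.63 on the naive array, and of all genes 60.1% from the 75th to the 90th percentile of level and 74.9% above it were below naive on that array. The chaperone Calr differed by -0.65, past 1.5-fold, the peptide transporter Tap1 by -0.39 and the loading chaperone Pdia3 by -0.36. In CXCR3+ innate cells 11 of the 16 were below and 2 above, with a median of -0.09, beside 34.2% of all genes below. There Nlrc5, an activator of class I genes, differed by -0.61 and Tap1 by -0.53. Other gene families, not only those of protein making and folding, were also low on the CXCR3- innate array. The median difference from naive was -0.40 over 8 chaperonin genes and -0.39 over 50 cytosolic ribosomal protein genes. Over 54 oxidative phosphorylation genes it was -0.22. The core proteasome median of -0.30 lay among these and the regulatory median of -0.07 did not. In the CD8 T cell marker list 5 of 7 genes were below naive on the same array, with a median of -0.30, Cd3g at -0.93, Cd8a at -0.66 and Cd3d at -0.52. The other 2 were above naive, Cd44, a marker of the sort, by 0.64 and Cxcr3, the reported receptor, by 0.25. The part of a shift of that array in these differences was not tested.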

How the data were processed

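The authors deposited log2 expression values of 12417 probe sets on 3 Affymetrix arrays, which the submitters' processing notes credit to RMA and Affymetrix Expression Console without versions. This method corrects background, equalises array distributions and summarises probes by median polish. No probe set has a highest value under 7.00, so genes under that level on every array are missing, not 0. The annotation gave 10576 probe sets 1 symbol, 1108 several and 733 none. Probe sets of 1 gene were averaged. Genes were counted as 2-fold or 1.5-fold apart when the higher value reached its array's median over all genes, without any test, since each population has 1 array. The members, gene lists and most alternatives were chosen with earlier results of these data known, and the split by level was added after the values were seen. Every member was named, and of the other lists up to 4 genes with the largest differences over the comparisons. Psme2, Psme4, Psmf1, Nfe2l1, Tap2, Cd8b1 and Cxcr3 were named outside this rule, after their values were seen. Alternatives were thresholds of 1.5-fold and 3-fold, no dim filter or a 75th percentile one, quantile normalization, cyclic loess, median centring, a linear offset of 16, other handling of probe sets, and medians over members above the dim filter. Counting by size was run on simulated arrays without noise that held changes of a set size, which checks the code only. Promoters came from RefSeq, build GRCm38.p6, and all 33 members matched by symbol. Python 3.11.15, pandas 2.3.3, R 4.3.3 and limma 3.58.1 were used. The number of arrays limits the precision.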

Additional observations from a re-analysis of the deposited data

Results flagged for a closer look

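In 6 of the 33 genes the CXCR3+ innate value was above and the CXCR3- innate value below the naive value, an order found in 3.24% of all genes. The gap between CXCR3+ and CXCR3- innate cells was 0.52 for Psmb4, 0.51 for Psmc4, 0.45 for Psmb2, 0.27 for Psmb6, 0.26 for Psmb3 and 0.077 for Psmd6. With 1 array each this difference was not tested, and both comparisons share the naive array. For Psmb2 the CXCR3+ innate value was 0.01 and for Psmd6 0.02 above naive.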

How the results depend on the processing

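No paired analysis was possible because each population has 1 array, and no array could be left out. Psmb1, the 1 gene past 2-fold in CXCR3- innate minus naive, gave a count of 0 at 3-fold, after quantile normalization and with the linear offset of 16, and the 1.5-fold threshold gave 4. That threshold also gave 1 lower gene in CXCR3+ innate minus naive and 2 higher genes in CXCR3+ innate minus CXCR3- innate. Genes equal on 2 arrays take a sign once arrays are rescaled. The count above 0 in CXCR3+ innate minus naive was 13 after quantile normalization, 13 after cyclic loess and 17 after median centring. In CXCR3- innate minus naive it was 5, 5 and 8 in that order, against 0 as deposited. The count below 0 in CXCR3+ innate minus CXCR3- innate was 12, 10 and 15. The median over all members in CXCR3+ innate minus naive was 0.0052 after median centring, against -0.0069 as deposited. In CXCR3- innate minus naive it was -0.23 over the 20 members above the dim filter. The core median of that comparison was -0.24 after quantile normalization and -0.28 after cyclic loess. Each member has 1 probe set, so that the handling of probe sets could change none of them, and a linear offset cannot turn a sign. With 1 array a population, brightness over background and the missing spread between mice limit every value.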

Other observations

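Psmb9, Tap1, Psmb8 and Tap2 are consecutive protein-coding genes on mouse chromosome 17 in the RefSeq order, yet their values did not follow one pattern. Tap1 had log2 values of 9.03 on the CXCR3+ innate array, 9.18 on the CXCR3- innate array and 9.56 on the naive array, with its lowest value in CXCR3+ innate cells, whereas Psmb9, its neighbour, had its lowest value in CXCR3- innate cells. That Psmb9 value was 6.998, under the 7.00 that every deposited probe set reaches on some array. Psmb9 is thus present only through another array, and its low CXCR3- innate value was favoured in advance. Tap2 read 7.79, 7.74 and 7.79, and Psmb8 differed from naive by -0.08 on both innate arrays.

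The 10 members with ETS motif letters in a RefSeq window, 9 of them regulatory, differed from naive by a median of -0.06 in CXCR3- innate cells, with values between -0.32 and 0.00. The 17 members whose windows lack those letters, 11 of them core, had a median of -0.22 and values between -0.88 and 0.00. The motif and the split into core and regulatory genes overlap. Among regulatory genes alone, the 9 with the letters had a median of -0.06 and values between -0.32 and 0.00, and the 6 without them had a median of -0.17 and values between -0.57 and 0.00, with 5 genes below naive in each set. Among core genes only Psma6 holds the letters, at -0.30. These sets were drawn up after the values were seen, and no test was made.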
